A study of Homo sapiens with 5 samples.

Results

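Many human genes end their mRNAs at more than 1 poly(A) site, and the results below concern the genes whose 2 most used sites both lay in last exons and stood 4000 nt or more apart. For each gene the 2 sites with most reads summed over the 5 libraries were taken as its pair, where together they averaged at least 20 reads per library and each averaged at least 5. Such a pair was found for 5869 genes, both sites were classed as last exon sites for 4675 of them, and 696 pairs (11.9% of all pairs) met the distance of 4000 nt. The genes were thus selected on summed reads, site class and distance, and those 3 properties are given as description only.

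Poly(A) site sequencing, which reads the 3′ ends of mRNAs, was applied to 5 libraries of HEK293T cells, a line derived from human embryonic kidney. One library came from the wild-type control line, 2 from separate cell lines with a CFIm59 knockout (KO) and 2 from separate cell lines with a CFIm68 knockout, made with CRISPR/Cas9 in HEK293T. Paired values below stand for line 1, then line 2. With 1 control library, and with each knockout represented by 2 edited lines, the spread behind every test is that between lines of 1 genotype, and an effect of a knockout cannot be told apart from a property of the single control culture.

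CFIm is a factor of the machinery that cleaves a nascent transcript and adds its poly(A) tail. Its small subunit binds UGUA in the RNA upstream of cleavage sites, and its larger subunits, CFIm68 (gene CPSF6) and CFIm59 (gene CPSF7), connect it to the rest of the machinery. Loss of CFIm activity is known to move many genes to the poly(A) site nearer the start of the 3′ untranslated region. Sites far apart arise in different ways: a single last exon can carry a very long untranslated region, or splicing can choose between last exons, in which case the encoded protein can differ too.

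The libraries held 1673687 to 2924266 reads in all. CPM are counts scaled to the library total, which was adjusted by TMM scaling except for the markers. CPSF6 transcripts stood at 120 CPM in control cells, 141 and 142 in CFIm59 KO lines 1 and 2, and 48 and 45.7 in CFIm68 KO lines 1 and 2 (CFIm68 KO against control, log2 change -1.35, adjusted p = 0.000512). CPSF7 transcripts stood at 59.8 CPM in control cells, 68.4 and 55.5 in CFIm59 KO lines, and 128 and 204 in CFIm68 KO lines, so the reads of CPSF7 do not check the CFIm59 labels. All 9 HEK293T markers had reads, and they summed to 850 to 1372 CPM. Most of that sum was VIM, at 541 to 1159 CPM, and 4 of the 9 reached 10 CPM in every library. The kidney progenitor marker LHX1 stood at 1.37 to 6.19 CPM, below the fibroblast marker COL1A1 at 8.07 to 12 CPM. Blood markers summed to 0.597 to 5.13 CPM, and those of fibroblasts to 8.96 to 17 CPM. Epithelial markers summed to 57.2 to 137 CPM, with CFIm68 KO lines highest, and liver markers to 24.3 CPM in the control and 0 to 3.87 CPM in the knockout lines. The part of these differences in the results was not tested.

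The 696 distances ranged from 4010 to 811755 nt with a median of 7728 nt and quartiles of 5011 and 20403 nt. Just inside the limit lay NAT8L at 4010 nt, C12orf49 at 4016 nt and CRCP at 4021 nt, and just outside it EFNA1 at 3997 nt, WDR26 at 3988 nt and ABHD3 at 3986 nt. The pairs averaged 66 reads per library at the median, the weaker site averaged 14, and the pair took a median of 77% of its gene's reads. A site averaged under 5 reads in the control for 74 of the genes, in the CFIm59 KO for 174 and in the CFIm68 KO for 56, so these genes entered through reads of the other groups. In 30 genes a site was also listed for another gene.

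The transcripts that the deposited table names for each site separated the pairs by structure. In 201 genes both sites lay in one last exon, with a median distance of 5288 nt. In 312 genes the sites belonged to separate last exons, with a median distance of 16153 nt. In 149 genes the distal site was assigned to the gene without a transcript, and in all 149 it lay beyond every last exon site named with a transcript. These distal sites had a median distance of 5767 nt, and the remaining 34 pairs could not be classed. Among the 312 pairs with separate last exons, the transcripts of both sites were protein-coding in 194, and the proximal transcript had the shorter coding sequence in 164 of those, the longer one in 27 and an equal one in 3. Its length was 55.3% of that of the distal transcript at the median. These are properties of the transcripts named for the sites, whose annotated ends were spaced like the sites within 10 nt in 136 of the 312 pairs. The transcripts of TMEM33, CUL4A and WDR33, described below, did not meet that spacing.

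The letters before the cleavage site can be read for pairs with separate last exons whose GENCODE 29 transcripts end as far apart as the deposited sites within 10 nt, which held for 136 of 312. The ends of 6 of these genes are printed here because their site use changed, as described below. The last 30 bases of each transcript are given 5′ to 3′, with the poly(A) signals AATAAA and ATTAAA and the CFIm recognition letters TGTA (UGUA in the RNA) in capitals.
HTATIP2 proximal: ttccccttAATAAAtgtttgaaatttgaaa
HTATIP2 distal: ataaaggAATAAAgatgaatggacaactcc
NRP1 proximal: ggtatcaAATAAAatacgaaatgtgacaga
NRP1 distal: tgaATTAAAcattttcataaaatatcccac
PAPOLA proximal: ATTAAAATAAAattgatTGTAgacactgaa
PAPOLA distal: tgaaaacacAATAAAaaaaaaacagcacaa
ZNF286A proximal: gaaAATAAAataacattcaTGTAtccatca
ZNF286A distal: taaagatgttTGTAtaTGTAttgtcagaaa
ATF7IP2 proximal: taaaAATAAAatacaactttaaatgcgcaa
ATF7IP2 distal: atcTGTAgcAATAAAgctgttattttctgc
LRRFIP1 proximal: ttgaAATAAAaacattttataattgtgcaa
LRRFIP1 distal: aaATTAAAaatgaaatgttgagagacttca

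AATAAA or ATTAAA stood within the last 40 bases of 112 of the 136 proximal ends (82.4%) and 117 of the 136 distal ends (86%), beside 55.9% of 62859 protein-coding transcripts of GENCODE 29. TGTA stood within the last 100 bases of 73 proximal ends (53.7%) and 78 distal ends (57.4%), beside 45.7% of those transcripts. The 136 pairs were kept for ends spaced like sequenced sites, a condition not set for the reference transcripts, so these shares are not like for like. Only the sense strand was searched. The 18 of these pairs that changed to the proximal site in the CFIm68 KO held TGTA at 7 proximal and 15 distal ends, while the 114 pairs not called held it at 63 and 61. The 10 pairs that changed to the distal site in the CFIm59 KO held TGTA at 6 proximal and 8 distal ends, and the 124 pairs not called there at 65 and 69. Of those 10 pairs, 1 proximal and 6 distal ends held 2 or more TGTA, among them the distal ends of PAPOLA with 4 and ZNF286A with 3, beside 19 and 34 of the 124. For the 18 pairs to the proximal site in the CFIm68 KO it was 3 proximal and 9 distal ends, beside 15 and 31 of the 114. Over all 136 pairs it was 20 proximal and 40 distal ends. These counts are a description of few pairs and no difference between them was tested.

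In CFIm68 KO lines these widely spaced genes were cleaved more often at the proximal site. Proximal use, the percentage of a pair's reads at its proximal site, had a median of 36.7% in control cells, 25.3% and 27.3% in CFIm59 KO lines 1 and 2, and 50.6% and 50% in CFIm68 KO lines 1 and 2. Against the control, a change to the proximal site was called in 193 of the 696 genes (27.7%), and one to the distal site in 31 (4.45%), in the CFIm68 KO (edgeR quasi-likelihood test, Benjamini-Hochberg adjusted over all 5869 pairs). The background over all pairs was 25.3% (proximal) and 3.14% (distal), so the total was near that of other genes. Both knockout lines lay on the same side of the control in all 224 called genes, which the test itself makes likely. DESeq2 called 103 and 8. Last exon pairs 1000 to under 4000 nt apart gave 739 of 1609 (45.9%) to the proximal site. A site averaged under 5 reads in one of the groups compared for 59 of the 193 genes and for 13 of the 31.

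The share of genes that changed differed with the structure of the pair. Of the 201 genes with both sites in one last exon, 112 (55.7%) changed to the proximal site in the CFIm68 KO and 3 to the distal site, with a median change of 21 percentage points. Of the 312 genes with separate last exons, 40 (12.8%) changed to the proximal and 19 (6.09%) to the distal site, with a median change of 4.01 percentage points. Where the distal site lay beyond the named transcripts, 34 of 149 (22.8%) changed to the proximal and 7 to the distal site. Within the same distance of 4000 to under 8000 nt the counts to the proximal site were 100 of 179 (55.9%) in one last exon and 10 of 73 (13.7%) in separate last exons. The median proximal use of pairs in one last exon was 31.8% in control cells, 21.1% and 21.7% in CFIm59 KO lines, and 61.7% and 57.1% in CFIm68 KO lines, without overlap of the 3 groups. For separate last exons it was 34.7% in control cells, 25% and 25.3% in CFIm59 KO lines, and 40.9% and 39.3% in CFIm68 KO lines. These shares describe groups of genes, and the difference between the structures was not tested.

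**Figure D1:**
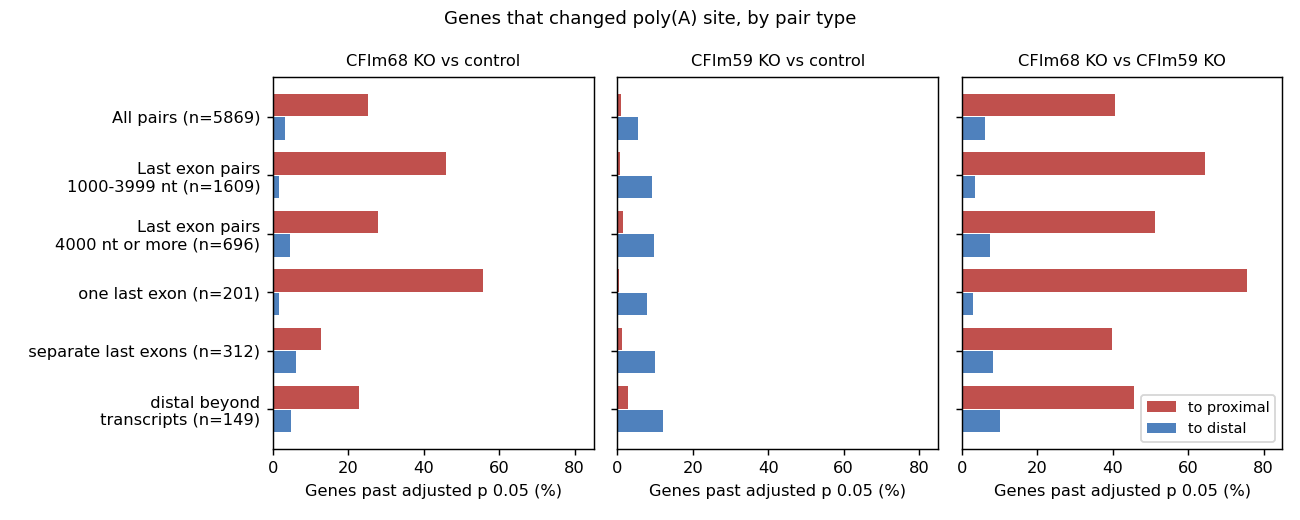
Percentage of genes that changed to the proximal (red) or distal (blue) site at adjusted p under 0.05 in each comparison, for all pairs, for last exon pairs 1000 to under 4000 nt apart, and for the 696 pairs 4000 nt or more apart with 3 of their structures; n is the number of genes. Pairs in one last exon reached 55.7% to the proximal site in the CFIm68 KO, pairs with separate last exons 12.8%.

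Distance alone ordered the genes in the same way, with 140 of 356 (39.3%) to the proximal site at 4000 to under 8000 nt, 28 of 127 (22%) at 8000 to under 16000 nt and 25 of 213 (11.7%) at 16000 nt or more. Across the 696 genes the change in the CFIm68 KO had a Spearman correlation of -0.242 with distance. It was -0.024 over the 201 genes with one last exon and 0.020 over the 312 with separate last exons. These are correlations across genes of the same 5 libraries and genes are not independent replicates.

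**Figure D2:**
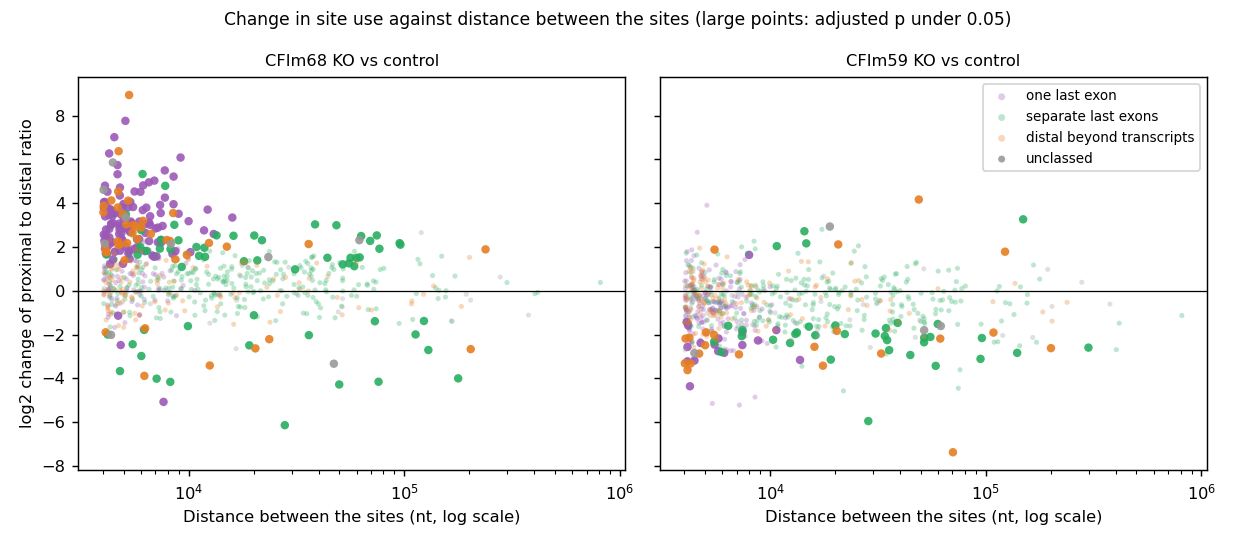
Log2 change in the ratio of proximal to distal reads against the distance between the sites (log scale) for the 696 genes, coloured by structure, in each knockout against the control; large points passed adjusted p 0.05. Pairs in one last exon end at 15921 nt and hold most of the large positive values of the CFIm68 KO, whereas negative values of the CFIm59 KO run along the whole range of distances.

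Among genes with one long last exon, changes to the proximal site in the CFIm68 KO reached 79.6 percentage points, beside 65.4 in separate last exons and 66.2 where the distal site lay beyond the named transcripts. C21orf91 (chromosome 21, hg19 19165564 and 19161291, minus strand) had a proximal use of 12.5% in control cells, 4.17% and 11.1% in CFIm59 KO lines, and 91.8% and 92.3% in CFIm68 KO lines. Both CFIm68 KO lines stood above every other library, and the log2 change of the proximal to distal ratio was 6.27 (SE 0.731, adjusted p = 4.23e-10). VMA21, an assembly factor of the vacuolar proton pump (chromosome X, 150573632 and 150577835, plus strand), went from 25.2% in the control to 86.1% and 78%, beside 14.3% and 11.4% in CFIm59 KO lines (log2 change 3.80, SE 0.390, adjusted p = 7.75e-12). The groups of VMA21 did not overlap.

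Further genes with both sites in one last exon changed in the same direction. FBXW2, a substrate receptor of a ubiquitin ligase, had a proximal use of 33% in control cells, 31.5% and 32.4% in CFIm59 KO lines, and 88.4% and 88.9% in CFIm68 KO lines (adjusted p = 2.05e-08). ABI2, a subunit of an actin regulatory complex, had 23%, then 23.4% and 18%, then 79.7% and 75.8% in the same order (adjusted p = 1.48e-09). PRKAA2, a catalytic subunit of the AMP-activated kinase, had 20.3% in control cells, 21.1% and 4.88% in CFIm59 KO lines, and 75% and 63.5% in CFIm68 KO lines (adjusted p = 2.48e-05). In these 3 genes CFIm59 KO lines lay at or below the control and CFIm68 KO lines far above it, except that CFIm59 KO line 1 was slightly above the control for ABI2 and PRKAA2. NACC2, a transcriptional repressor, started from 3.92% in the control and 5.13% and 9.09% in CFIm59 KO lines and reached 53.2% and 53.8% (adjusted p = 4.06e-06).

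TMEM33, an endoplasmic reticulum membrane protein, gave the widest change among pairs with separate last exons and 50 or more reads per library. The transcript named for its proximal site (chromosome 4, 41956471, plus strand) is annotated as a target of nonsense-mediated decay. The one named for its distal site (41962575) is protein-coding. Proximal use was 35.3% in control cells, 16.2% and 14.5% in CFIm59 KO lines, and 97% and 93.9% in CFIm68 KO lines, with no overlap between the groups (log2 change 5.33, SE 0.527, adjusted p = 2.52e-12). HTATIP2 and NRP1, whose ends are shown above, changed the same way. HTATIP2 had 15.4% in control cells, 8.57% and 18.9% in CFIm59 KO lines, and 48.6% and 54.5% in CFIm68 KO lines (adjusted p = 6.91e-06), and its coding sequence was 399 nt at the proximal and 828 nt at the distal site. NRP1, a receptor for semaphorins and vascular endothelial growth factor that is also known in shortened soluble forms, had 39.5%, 37.5% and 44.4%, and 80.3% and 76.9% (adjusted p = 0.00202), with coding sequences of 1827 nt and 2769 nt. In both genes the CFIm68 KO lines stood above the other 3 libraries, and the CFIm59 KO lines lay on either side of the control.

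Several named genes changed to the distal site in the CFIm68 KO. SLC11A2, the divalent metal transporter whose known alternative 3′ ends differ in an iron-responsive element, had a proximal use of 66.2% in control cells, 51.5% and 58.3% in CFIm59 KO lines, and 31.2% and 42% in CFIm68 KO lines (adjusted p = 0.00773). ZNF480, a zinc finger gene, had 80%, then 90.4% and 89.7%, then 60% and 38.5% (adjusted p = 0.0138). RIF1, which acts in DNA repair and replication timing, had 54.3% in control cells, 64% and 68% in CFIm59 KO lines, and 20% and 13.3% in CFIm68 KO lines (adjusted p = 0.00365). Both sites of RIF1 were lower there: the proximal site fell from 27 CPM in the control to 1.5 and 0.938 CPM, and the distal site from 22.8 CPM to 5.98 and 6.10 CPM. With the outermost last exon sites of each gene as its pair, RIF1 (log2 6.24) and SLC11A2 (log2 2.09) pointed to the proximal site instead. The call of SLC11A2 was lost without CFIm68 KO line 1 and that of ZNF480 without line 2.

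**Figure D3:**
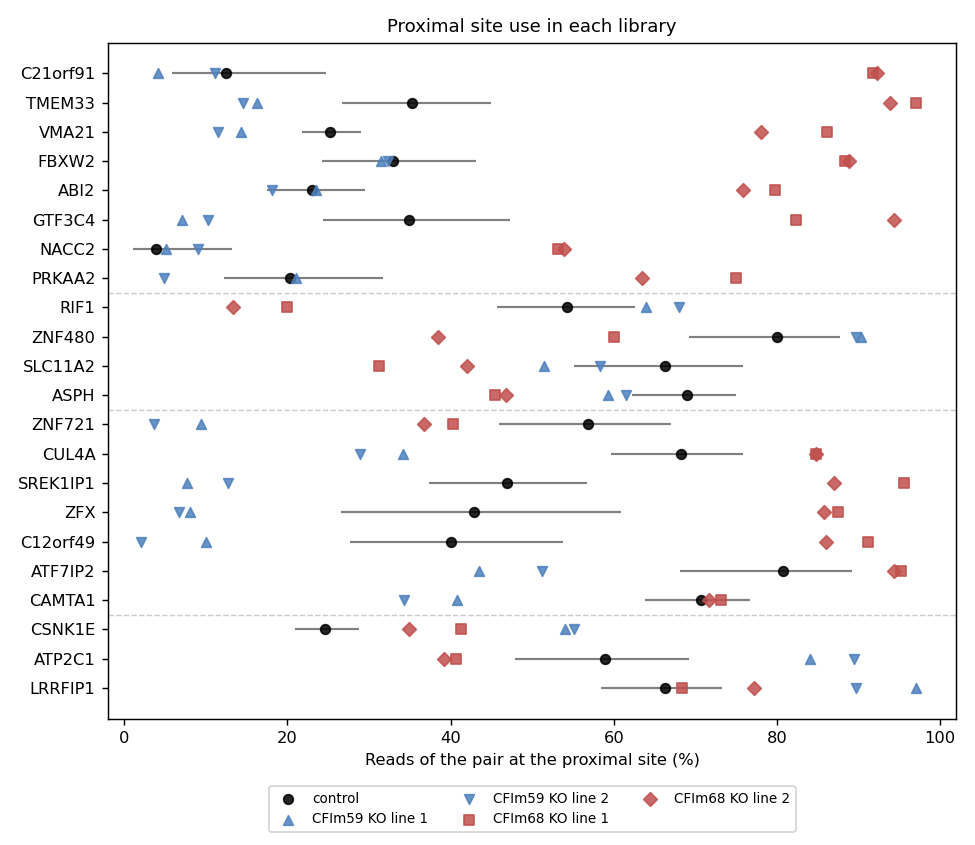
Percentage of the pair's reads at the proximal site in each of the 5 libraries for 22 genes, with the 95% Wilson interval of the control as a grey line. Dashed lines separate genes to the proximal and to the distal site in the CFIm68 KO (first 8 and next 4) from genes to the distal and to the proximal site in the CFIm59 KO (next 7 and last 3); RIF1 falls from 54.3% in the control to 20% and 13.3% in CFIm68 KO lines.

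By function, all 4 genes of the microRNA pathway changed to the proximal site in the CFIm68 KO, with a median of 37.5 percentage points beside 6.53 for all 696 genes and 5.16 for all pairs, of which 25.3% changed that way. By DESeq2 only TNRC6B passed (adjusted p = 0.0202), with 0.0747 for AGO3, 0.0941 for DICER1 and 0.316 for AGO1. AGO3, an Argonaute protein, had a proximal use of 32% in control cells, 16.7% and 4.55% in CFIm59 KO lines, and 75% and 89.3% in CFIm68 KO lines (adjusted p = 0.00319). TNRC6B, a partner of the Argonaute proteins in silencing, had 18.5%, then 21.1% and 10.7%, then 80.3% and 67.6% (adjusted p = 0.000256). DICER1, which cuts microRNA precursors, had 9.52%, then 8.42% and 3.94%, then 35.9% and 23.1% (adjusted p = 0.00304). The CFIm68 KO lines were above all other libraries in each of these 3 genes. AGO1 had 41.7% in control cells, 56.4% and 32.9% in CFIm59 KO lines, and 60.5% and 72.4% in CFIm68 KO lines, and passed with adjusted p = 0.0424. The calls of AGO1 and AGO3 were lost without CFIm68 KO line 2. The pairs of AGO3 and TNRC6B rest on 18 to 61 reads per library. In the CFIm59 KO none of the 4 passed by edgeR, with 0 at an unadjusted p under 0.05 by edgeR or DESeq2.

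Of 20 genes for ubiquitin ligases, conjugating enzymes and proteases, 8 changed to the proximal and 1 (RNF34, lost without CFIm68 KO line 2) to the distal site in the CFIm68 KO, with a median of 15.7 percentage points, beside 25.3% and 3.14% of all pairs. The counts of the lists that follow are read against the same shares. USP33, picked for this list by its reads, was called in no comparison. USP13 is a ubiquitin protease that was added after its values were seen. USP13 had a proximal use of 6.06% in control cells, 9.76% and 14.6% in CFIm59 KO lines, and 87.5% and 71.4% in CFIm68 KO lines (adjusted p = 2.24e-06). Of 7 RNA-binding and splicing proteins 4 changed to the proximal site and none to the distal, among them RBM26 with 18.3%, then 10.8% and 19.8%, then 57.1% and 72.7% (adjusted p = 4.87e-07). Of 20 transporters and channels 8 changed to the proximal and 3 to the distal site. SLC7A11, the cystine and glutamate exchanger, had 3.12% in the control and 43.2% and 39.5% in CFIm68 KO lines (adjusted p = 0.00201), and no proximal read among 7 and 8 reads in CFIm59 KO lines, which allows up to 42.9% and 37.5%. Of 23 zinc finger genes 4 changed to the proximal and 2 to the distal site with a median of 1.30 percentage points, and of 12 kinases and phosphatases 2 and 1. Chromatin regulators (6 genes) and adhesion and guidance genes (4) had 1 to the proximal site each, and small GTPases and their regulators (4) had 1 to the distal site.

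The CFIm59 KO lines differed from the control mainly in the opposite direction and in fewer genes. In this comparison 68 of the 696 genes (9.77%) changed to the distal site and 10 (1.44%) to the proximal site, beside 5.38% and 1.02% of all pairs. Last exon pairs 1000 to under 4000 nt apart were close to this, with 148 of 1609 (9.20%) to the distal site. Both lines lay on the same side of the control in all 78, which the test again makes likely. A site averaged under 5 reads in one of the groups compared for 20 of the 68 genes and for 2 of the 10. Without CFIm59 KO line 1 the count to the distal site was 34 and without line 2 it was 28, and DESeq2 called 3 to the distal site and 0 to the proximal, with 92 and 12 at an unadjusted p under 0.05 and no adjusted p for 312 of the 696 genes. With the outermost last exon sites of a gene as its pair, the calls of CAMTA1, PAPOLA, SREK1IP1, CSNK1E and ATP2C1 described below were lost and RBBP6 changed direction (log2 0.68). The control is shared with the CFIm68 comparison, so the 2 sets of values are not independent.

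The share to the distal site varied less between structures than in the CFIm68 KO. It was 16 of 201 (7.96%) in one last exon, 31 of 312 (9.94%) in separate last exons and 18 of 149 (12.1%) where the distal site lay beyond the named transcripts. Median changes were -6.47, -4.29 and -3.53 percentage points, beside -2.42 for all pairs. By distance the counts were 29 of 356 at 4000 to under 8000 nt, 8 of 127 at 8000 to under 16000 nt and 31 of 213 (14.6%) at 16000 nt or more. Of the 31 genes with separate last exons that changed to the distal site, 12 had a transcript of a type other than protein-coding at the proximal site alone and 16 had coding transcripts at both.

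ZNF721, a zinc finger gene with both sites in one last exon, had the widest change to the distal site among genes with 50 or more reads per library. Its proximal use was 56.8% in control cells, 9.38% and 3.64% in CFIm59 KO lines, and 40.2% and 36.8% in CFIm68 KO lines, so every knockout library was below the control and CFIm59 KO lines lowest (CFIm59 KO against control, log2 change -4.36, SE 0.679, adjusted p = 1.53e-05). CUL4A, the scaffold of a ubiquitin ligase, had sites in separate last exons 34857 nt apart (chromosome 13, 113884529 and 113919386, plus strand). The transcript named for the proximal site has no coding sequence. Its proximal use was 68.3% in control cells, 34.1% and 28.9% in CFIm59 KO lines, and 84.8% in each CFIm68 KO line (adjusted p = 0.000439). Its distal site rose from 15.1 CPM in the control to 53.6 and 78.3 CPM in CFIm59 KO lines, beside 2.62 and 2.34 CPM in CFIm68 KO lines. The gene level of CUL4A also passed against the control in both knockouts, with the CFIm59 KO call lost by DESeq2. Its site use was not called in the CFIm68 KO against the control.

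CAMTA1 and ZNF286A moved in the CFIm59 KO alone among the comparisons with the control. CAMTA1, a transcription activator that binds calmodulin, had a proximal use of 70.7% in control cells, 40.8% and 34.3% in CFIm59 KO lines, and 73.1% and 71.7% in CFIm68 KO lines (adjusted p = 0.0013 for the CFIm59 KO and 0.867 for the CFIm68 KO). ZNF286A had 45.9%, then 10.4% and 16%, then 50.5% and 51.9% (adjusted p = 0.00411 and 0.71). The knockouts differed from each other in both genes (CAMTA1 log2 2.15, adjusted p = 4.97e-07; ZNF286A log2 2.68, adjusted p = 6.66e-07).

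Among 5 genes for cleavage and polyadenylation factors, 3 changed to the distal site in the CFIm59 KO, beside 5.38% of all pairs, and 1 to the proximal site in the CFIm68 KO, beside 25.3%. WDR33, the subunit that reads the AAUAAA signal, had a proximal use of 35.6% in control cells, 5.75% and 4.10% in CFIm59 KO lines, and 55.7% and 53.3% in CFIm68 KO lines, without overlap (CFIm59 KO adjusted p = 1.97e-05, CFIm68 KO adjusted p = 0.0337). Its sites lie 58545 nt apart in separate last exons (chromosome 2, 128522048 and 128463503, minus strand). The transcripts named for them have 978 and 4008 nt of coding sequence. PAPOLA, the canonical poly(A) polymerase, had 13.2% in control cells, 2.76% and 5.71% in CFIm59 KO lines, and 22.2% and 21.1% in CFIm68 KO lines (adjusted p = 0.0158 and 0.107). Its proximal end, printed above, belongs to a transcript that retains an intron and has no coding sequence. RBBP6, a ubiquitin ligase of the cleavage complex, had 27.2%, then 7.78% and 9.47%, then 21.8% and 30.9% (adjusted p = 0.0144 and 0.917). The call of WDR33 in the CFIm68 KO was lost without CFIm68 KO line 1 and without CFIm59 KO line 1, whose reads enter the shared spread, by DESeq2, with no minimum beyond 1 read, with the outermost last exon sites and with only the groups compared. The calls of PAPOLA and RBBP6 in the CFIm59 KO were lost by DESeq2 and without CFIm59 KO line 1, and that of RBBP6 also without line 2. CPSF6, the gene of CFIm68, had 54.3%, then 53.9% and 47.4%, then 62.1% and 70.3% and passed in neither comparison, and neither did CSTF3.

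The 10 genes to the proximal site in the CFIm59 KO included LRRFIP1, CSNK1E and ATP2C1. LRRFIP1, a nucleic acid sensor and transcription regulator, had a proximal use of 66.2% in control cells, 97% and 89.7% in CFIm59 KO lines, and 68.4% and 77.2% in CFIm68 KO lines (adjusted p = 0.00119). Its distal site stood at 20.1 CPM in control cells, 1.26 and 3.98 CPM in CFIm59 KO lines, and 17.9 and 14.5 CPM in CFIm68 KO lines, whereas the proximal site ranged from 34.5 to 49.2 CPM over the 5 libraries. CSNK1E, a casein kinase of the circadian clock, had 24.6%, then 54% and 55.2%, then 41.3% and 34.9% (adjusted p = 0.00108). ATP2C1, a calcium and manganese pump of the Golgi, had 59% in control cells, 84.1% and 89.4% in CFIm59 KO lines, and 40.6% and 39.1% in CFIm68 KO lines (adjusted p = 0.0104), with the call lost without CFIm59 KO line 2. The CFIm59 KO lines were the highest libraries in all 3 genes.

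The KO groups gave more calls against each other than either gave against the control. In the CFIm68 KO against the CFIm59 KO, 357 of the 696 genes (51.3%) were more proximal and 51 (7.33%) more distal, beside 40.7% and 6.2% of all pairs. By structure the more proximal genes were 152 of 201 (75.6%) in one last exon, 124 of 312 (39.7%) in separate last exons and 68 of 149 beyond the named transcripts. Without CFIm59 KO line 2 the count of more distal genes was 30, and DESeq2 called 25.

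In several genes the control lay between the KO groups. SREK1IP1, which binds a splicing regulator, had a proximal use of 46.9% in control cells, 7.69% and 12.7% in CFIm59 KO lines, and 95.6% and 87% in CFIm68 KO lines, with the control between the knockouts (CFIm68 against CFIm59 KO, log2 6.52, adjusted p = 4.16e-17). ZFX, an X-linked transcription factor, had 42.9%, then 8.06% and 6.67%, then 87.5% and 85.7% (log2 6.28, adjusted p = 6.71e-15). C12orf49, a regulator of sterol response element binding proteins that sits just inside the distance limit, had 40%, then 10% and 2.08%, then 91.1% and 86% (log2 6.89, adjusted p = 3.27e-15). All 3 genes showed 3 separate levels, lowest in the CFIm59 KO and highest in the CFIm68 KO, and the call of C12orf49 against the control in the CFIm59 KO was lost without CFIm59 KO line 2.

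The levels of the single sites showed whether a change in use came with reads gained at one site or lost at the other. Over all 25948 sites tested, 6.96% were higher and 7.63% lower in the CFIm68 KO, and 4.82% higher and 6.17% lower in the CFIm59 KO. Of the 696 genes, 678 proximal and 688 distal sites could be tested. The called genes were chosen by the ratio of the same counts, so a matching direction at their sites follows largely from that choice. Their counts cannot be read as an excess over the shares of all sites. Of the 193 genes to the proximal site in the CFIm68 KO, the proximal site was higher in 91, the distal site lower in 92, both in 33 and neither in 42. The median site changes were 1.32 and -1.08 on the log2 scale. For the 68 genes to the distal site in the CFIm59 KO the proximal site was lower in 36 and the distal site higher in 17, both in 1, with medians of -1.70 and 0.72. For the 10 genes to the proximal site in that knockout the distal site was lower in 8 and the proximal site higher in 2. Of the 31 to the distal site in the CFIm68 KO, the proximal site was lower in 18 and the distal site higher in 8. By DESeq2 far fewer single sites passed: over the 696 genes, 14 proximal sites were higher and 27 distal sites lower in the CFIm68 KO, beside 110 and 115 by edgeR.

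**Figure D4:**
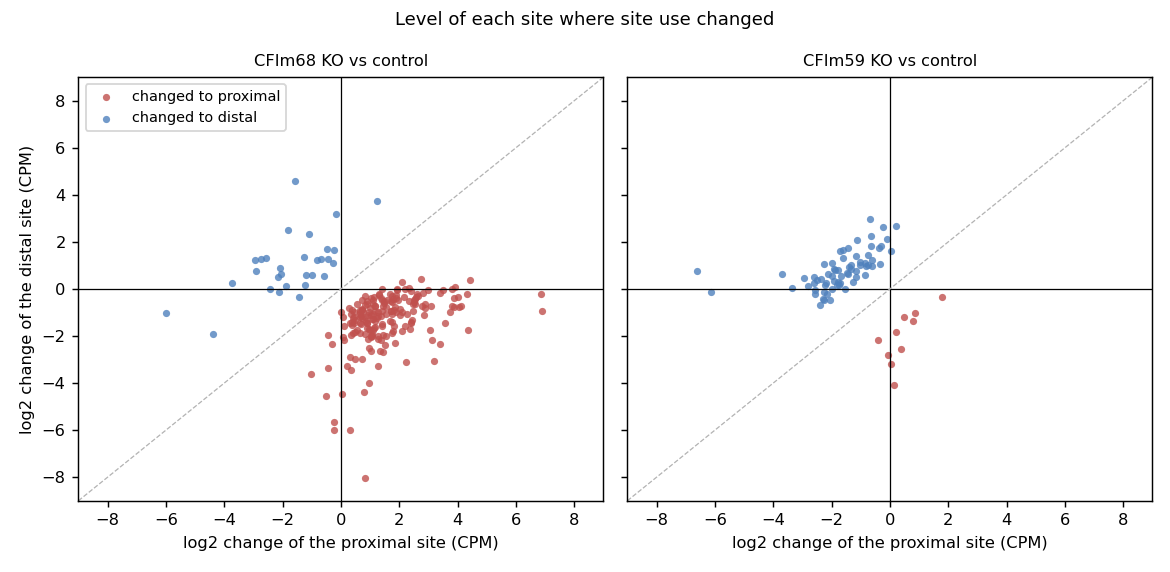
Log2 change in CPM of the proximal site (x axis) and the distal site (y axis) for genes that changed to the proximal (red) or distal (blue) site in each knockout against the control; the dashed line marks equal change. In the CFIm68 KO red points lie to the lower right, with medians of 1.32 and -1.08, and in the CFIm59 KO blue points lie to the upper left, with medians of -1.70 and 0.72. The genes were chosen by the ratio of the same counts, so their side of the dashed line follows from that choice.

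Gene level, the sum over all sites of a gene, was tested apart from site use. In the CFIm68 KO 10 of the 696 genes were higher and 14 lower at the gene level, beside 1.59% and 2.03% of 14636 genes. Of the 193 to the proximal site 3 (1.55%) were higher and 2 (1.04%) lower, and the median log2 change was 0.09, beside 0.02 for all genes. In the CFIm59 KO 37 were higher and 44 lower, beside 6.98% and 6.87%. Those 37 and 44 are 5.32% and 6.32% of the 696. Of the 68 to the distal site 8 (11.8%) were higher and 6 (8.82%) lower. These are few genes, and a difference from the shares of all genes was not tested. Between the knockouts 79 of the 696 were higher and 71 lower in the CFIm68 KO, beside 9.46% and 10.3%. Without CFIm59 KO line 1 or 2 the count of lower genes in the CFIm59 KO was 25 or 20, and without line 2 the count of higher genes was 24. DESeq2 called 0 higher and 3 lower in the CFIm68 KO, with 17 and 27 at an unadjusted p under 0.05, and called 9 and 13 in the CFIm59 KO.

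HTATIP2, a metastasis suppressor of the dehydrogenase family, had the largest fall of gene level in the CFIm59 KO among these genes with a mean count of 20 or more (log2 change -2.0, adjusted p = 2.46e-06), and ZNF780B the largest rise (2.63, adjusted p = 0.000115), from 4.14 CPM in the control to 19.8 and 31.1 CPM, beside 6.95 and 4.0 CPM in CFIm68 KO lines. In the CFIm68 KO CPSF6 had the largest fall. KRT8, a keratin and 1 of the epithelial markers above, was higher there (log2 1.79, adjusted p = 0.00207), at 43.1 and 32 CPM beside 10.9 CPM in the control and 8.41 and 13.3 CPM in CFIm59 KO lines. PAPOLA was lower in both knockouts against the shared control (log2 -0.90 in each, adjusted p = 0.0178 in the CFIm68 and 0.00601 in the CFIm59 KO). Its calls were lost without CFIm68 KO line 1 and without CFIm59 KO line 1, respectively.

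The genes with most reads were ribosomal protein genes whose use hardly differed in points. RPL34 had a proximal use of 52.3% to 54.2% over the 5 libraries and RPS29 of 99.7% to 99.9%. Neither passed for site use against the control, but both passed at the gene level in each knockout. The gene level call of RPL34 in the CFIm68 KO held in 3 of 7 alternative runs, and the other calls in 6 of 7. RPL37 had 98.5% in control cells, 98.9% and 98.3% in CFIm59 KO lines, and 99.9% and 99.7% in CFIm68 KO lines, a change of about 1 point that passed (log2 2.89, adjusted p = 2.34e-05). The longest distances belonged to EXOC4, a subunit of the vesicle-tethering exocyst with 811755 nt, PCDH7, RANBP17 and GOLGA6L9. EXOC4 had 17.4% in control cells, 1.92% and 13.9% in CFIm59 KO lines, and 29.5% and 10.7% in CFIm68 KO lines, so the CFIm68 KO lines lay on either side of the control, and none of the 4 passed against it. GOLGA6L9 belongs to a family of near-identical copies and shares a site with another gene, so its distance is uncertain.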

How the data were processed

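Per the labels' protocols, 3′ ends of total RNA were primed with oligo(dT) and sequenced as single reads. Per the submitters' processing notes, TopHat2 2.1.0, deepTools 2.4 and hg19 were used, and the site calling method is not stated there. The deposited table of the authors holds whole-number read counts per site and library, used unchanged. Each site was taken at its first listing.

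The members, gene lists and tests were chosen with earlier results of these data known. Site use was tested on the proximal and distal counts of all 5869 pairs with edgeR 4.0.16 (R 4.3.3; quasi-likelihood, 1 term per library, a site-by-group term, no replicate block, adjusted p under 0.05). Gene and single-site levels used TMM scaling and edgeR's filter on low counts. Marker CPM values carry no TMM scaling. The named genes were, among pairs with 50 or more reads per library, those past the threshold with the largest change in points (10 and 8 in the CFIm68 knockout, 4 and 10 in the CFIm59 knockout, 5 each way between the knockouts), those with most reads, the longest distances, up to 3 per gene list, and the largest gene level changes. AGO3, USP13 and WDR33 were added after their values were seen. A gene that the rule picked is not reported here.

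Structures and end sequences came from GENCODE 29 (GRCh38) transcripts, matched by the transcript identifiers in the deposited table. They were chosen after the files were seen, since no hg19 genome was used here, and no coordinates were converted. On simulated counts for the CFIm68 comparison of 5869 pairs, edgeR called 5.97% of pairs changed by 1 on the log2 scale, 56.7% at 2, 71.2% at 3 and 0.0882% of unchanged pairs. There 67, 67 and 66 pairs were changed, 5669 were not, and all pairs had the same spread without differences between cultures. In the data 25.3% of pairs were called to the proximal site, so these rates describe the simulated setting only. Alternatives covered DESeq2 1.42.0, other scaling, filters and pair choices, each line left out and a replicate block. Intervals are 95% Wilson intervals and a count of 0 allows 3 reads, both for counting error only.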

Additional observations from a re-analysis of the deposited data

Results flagged for a closer look

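Among the 696 genes, 23 were called in opposite directions in the CFIm68 and CFIm59 KOs against the shared control, and 10 of these 23 are named here. Many of the named genes were picked for large changes, so the 10 are not a sample of the 696. No share of all pairs is given beside these counts. The difference between the knockouts passed the edgeR test in all 23, which opposite calls around a shared control make likely. The log2 difference of the proximal to distal ratio, CFIm68 KO over CFIm59 KO, was 6.89 for C12orf49, 6.67 for ATF7IP, 6.52 for SREK1IP1, 6.29 for GTF3C4 and 6.28 for ZFX. It was 4.82 for UBE2K, 4.65 for RNF141, 4.55 for WDR33, 4.26 for ATF7IP2 and 3.27 for RBM8A. By DESeq2 the difference between the knockouts passed in all 10, but none kept opposite calls against the control: 7 lost a call and 3 (ATF7IP, C12orf49 and ZFX) had no adjusted p in the CFIm59 KO. The calls lost were those of ATF7IP2, GTF3C4, RBM8A, RNF141, SREK1IP1 and UBE2K in the CFIm59 KO and of ATF7IP2 and WDR33 in the CFIm68 KO (adjusted p 0.0973 to 0.45). In all 10 the CFIm68 KO lines were more proximal and the CFIm59 KO lines more distal than the control. GTF3C4, a subunit of the factor that recruits RNA polymerase III, had a proximal use of 34.9% in control cells, 7.07% and 10.2% in CFIm59 KO lines, and 82.4% and 94.3% in CFIm68 KO lines. RBM8A, a core protein of the exon junction complex, had 88.6%, then 76.1% and 68.4%, then 96.3% and 96%. ATF7IP2, whose ends are printed in the report, had 80.8%, then 43.5% and 51.2%, then 95.2% and 94.3%. Its calls against the control were lost without CFIm68 KO line 1 and without either CFIm59 KO line, and that of WDR33 in the CFIm68 KO without CFIm68 KO line 1 or CFIm59 KO line 1. In the CFIm59 KO the call was lost without line 1 for ATF7IP and UBE2K and without line 2 for C12orf49, RBM8A, RNF141 and UBE2K.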

How the results depend on the processing

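Of 170 single-gene results, 80 kept their direction and their side of the threshold in every alternative run. Calls to the proximal and distal site were, in the CFIm68 KO, 103 and 8 by DESeq2, 52 and 8 with at least 100 reads per pair and 20 per site, 53 and 18 at 8000 nt or more, and 337 to the proximal site with the outermost last exon sites as the pair. In the CFIm59 KO they were 0 and 3 by DESeq2, 6 and 31 with the higher minimum, and to the distal site 27 with no minimum beyond 1 read, 106 with the outermost sites and 39 at 8000 nt or more. Between the KO groups they were 76 and 15 with the higher minimum, 145 and 25 at 8000 nt or more, 584 to the proximal site with the outermost sites and 25 to the distal site by DESeq2. Higher minima and distances test fewer genes; for the other settings the cause was not tested. For genes with one last exon, separate last exons, and distances of 4000 to under 8000, 8000 to under 16000 and 16000 nt or more, DESeq2 called 67, 13, 91, 7 and 5 to the proximal site in the CFIm68 KO and 1, 1, 1, 0 and 2 to the distal site in the CFIm59 KO. With the higher minimum the CFIm68 counts were 18, 25, 31, 10 and 11, and the CFIm59 counts 7, 19 and 13 for the first 3 groups and 12 for the last. With no minimum beyond 1 read the CFIm59 counts were 6, 14, 12, 4 and 11. With the outermost sites, the CFIm68 counts were 83 in separate last exons, 240 at 4000 to under 8000 nt and 56 at 16000 nt or more, and the CFIm59 counts 34 in one last exon and 58 at 4000 to under 8000 nt. With only the groups compared in the fit, 26 genes with one last exon changed to the distal site in the CFIm59 KO. Gene level counts by DESeq2, higher and lower, were 0 and 3 in the CFIm68 KO, 9 and 13 in the CFIm59 KO, and 32 and 28 between the KO groups. Single sites by DESeq2, as proximal higher and lower and distal higher and lower, were 14, 8, 2 and 27 in the CFIm68 KO and 4, 15, 9 and 5 in the CFIm59 KO, and with no filter on low counts 51, 19, 4 and 66, and 2, 48, 12 and 13.

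With 1 knockout line left out in turn, calls to the proximal site ranged from 171 to 191 and to the distal site from 29 to 31 in the CFIm68 KO, from 6 to 14 and from 28 to 84 in the CFIm59 KO, and from 290 to 333 and from 30 to 48 between the KO groups. For the 5 groups in the order above, CFIm68 counts to the proximal site ranged from 94 to 111, 36 to 39, 126 to 139, 24 to 27 and 21 to 26, and CFIm59 counts to the distal site from 9 to 26, 12 to 35, 14 to 41, 3 to 12 and 11 to 31. Gene level counts, higher and lower, ranged from 7 to 13 and 11 to 14 in the CFIm68 KO, 24 to 48 and 20 to 52 in the CFIm59 KO, and 40 to 61 and 44 to 58 between the KO groups. Single-site counts in the earlier order ranged from 75 to 105, 22 to 30, 13 to 16 and 77 to 114 in the CFIm68 KO, and from 7 to 21, 34 to 84, 19 to 52 and 13 to 36 in the CFIm59 KO. Where 1 line of a genotype was left, the lone library was assumed to vary like the others.

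The single genes that changed direction did so with the outermost last exon sites, which replace the pair by another. Log2 values against the control were then 1.34 for ASPH, 1.40 for CA8, -0.85 for HNRNPR, 1.38 for RAB3GAP2, 6.24 for RIF1 and 2.09 for SLC11A2 in the CFIm68 KO and 0.68 for RBBP6 in the CFIm59 KO. Between the KO groups they were 0.47 for ARID4B, 1.66 for ASPH, 0.42 for CSNK1E, -1.05 for HNRNPR, -0.42 for PPP1R7, 3.83 for RAB3GAP2, -1.79 for RBBP6, 5.51 for RIF1 and 2.63 for SLC11A2. DESeq2 ended the call of 17 named genes in the CFIm68 KO, among them AGO1, AGO3, WDR33, DICER1, NRP1, RIF1, SLC11A2, SLC7A11 and ZNF480, and of 19 in the CFIm59 KO, among them CUL4A, CAMTA1, CSNK1E, ATP2C1, LRRFIP1, SREK1IP1, PAPOLA and ZNF286A. The line numbers shared by the KO groups only name the lines: deviations of same-numbered lines correlated at 0.0317 for site use and -0.0195 for gene level. With the line number as a replicate block the KO groups differed at 356 genes to the proximal and 52 to the distal site, and at gene level at 68 higher and 58 lower. The control has no partner, so no paired comparison with it was possible. Depth limits the weaker sites, which averaged 14 reads per library at the median.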

Other observations

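Liver markers summed to 24.3 CPM in the control library and to 0.597, 3.87, 0 and 0 CPM in CFIm59 KO lines 1 and 2 and CFIm68 KO lines 1 and 2. The source of these reads was not tested. Among the 21 of the 696 pairs with no listed site between them, 1 changed to the proximal site in the CFIm68 KO and 1 to the distal site in the CFIm59 KO, and the median change was -0.64 and 0.80 percentage points. Where only last exon sites lay between the 2 sites, 144 of 300 pairs (48%) changed to the proximal site in the CFIm68 KO, and where sites of other classes lay between them, 48 of 375 (12.8%) did.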
